A study of Mus musculus with 7 samples.

Results

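Tip60 and p400 are subunits of one chromatin complex, and their ChIP-seq signals were compared over the same gene starts in control mouse embryonic stem cells (ESCs). All rows that carry a RefSeq ID in both deposited tables entered the comparison, which gave 22704 of 36733 rows and 17690 gene symbols. Rows were joined by ID and by their order within an ID. The level of a row was its mean signal from 500 bp before to 500 bp after the start, divided by the mean signal of the same library 1500 to 2000 bp away on either side, so a level of 1 is the flank. One library represented each condition, so the differences below have no replicate check, no p-value is given, and counting intervals cover counting error only.

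Both libraries came from feeder-free E14 mouse ESCs infected for 72 hr with lentivirus carrying a short hairpin RNA against GFP (GFP KD), which targets no gene of these cells and served as the control knockdown. Tip60 was precipitated with Flag antibody from ESCs in which 1 endogenous copy of Tip60 carried a histidine and Flag (H3F) tag at its C-terminus (Tip60-H3F), whereas p400 was precipitated with an antibody to the protein itself from untagged ESCs. The cell line and the antibody thus differ together with the subunit and cannot be told apart from it. Flag ChIP-seq from untagged ESCs, with no knockdown, is given as the background of the Tip60 library, and no control library of the p400 antibody was used here. Other readouts were a Flag ChIP of Hdac6 in GFP KD ESCs of another line, in which Hdac6 itself carried the H3F tag (Hdac6-H3F), and ChIPs from Hdac6 KD ESCs, of Tip60 in the Tip60-H3F line and of p400 in untagged cells.

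The Tip60-p400 complex joins a pair of activities. Tip60 (Kat5) is an acetyltransferase of histones H4 and H2A, and p400 (Ep400) is a Swi/Snf-type ATPase that places the histone variant H2A.Z in nucleosomes. In ESCs the complex is known at promoters of active genes and of silent developmental regulators.

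The Tip60 values imply about 21300000 normalizing reads, those of p400 25300000 and those of the untagged control 23100000. A row held a median of 13 reads for Tip60 (quartiles 9 and 17) and 21 for p400 (quartiles 13 and 29). Single reads covered 299 bp in all of these tables. In 3649 rows (16.1%) another row's start lay within 500 bp, so both rows drew on the same reads. Of 154 pairs of rows with a shared ID whose levels differed by 1 or more in both ChIPs, 151 had both ChIPs higher on the same row.

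DNA before 6 listed starts is shown first, since base composition differed among the classes described below. These were the first genes of each class, by the rule for named genes, whose bases 250 to 51 before the start touched no annotated exon. The capitals mark CG dinucleotides, and the build is mm9. Psat1 (chr19:15999566-15999765 on the minus strand) and Slc7a1 (chr5:149211506-149211705 on the minus strand) were high in both ChIPs. Creld2 (chr15:88649826-88650025 on the plus strand) and Ubtd1 (chr19:42056003-42056202 on the plus strand) were high for p400 and low for Tip60. Fbxo28 (chr1:184248569-184248768 on the minus strand) and Nr2f2 (chr7:77511683-77511882 on the minus strand) were high for Tip60 and low for p400.
Psat1: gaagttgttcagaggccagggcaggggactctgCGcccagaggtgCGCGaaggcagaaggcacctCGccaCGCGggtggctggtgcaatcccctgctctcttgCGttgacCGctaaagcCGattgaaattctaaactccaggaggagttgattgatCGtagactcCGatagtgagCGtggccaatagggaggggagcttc
Slc7a1: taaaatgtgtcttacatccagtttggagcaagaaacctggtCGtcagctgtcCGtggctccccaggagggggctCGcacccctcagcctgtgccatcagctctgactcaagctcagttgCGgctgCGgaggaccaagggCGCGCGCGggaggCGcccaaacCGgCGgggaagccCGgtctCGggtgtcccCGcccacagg
Creld2: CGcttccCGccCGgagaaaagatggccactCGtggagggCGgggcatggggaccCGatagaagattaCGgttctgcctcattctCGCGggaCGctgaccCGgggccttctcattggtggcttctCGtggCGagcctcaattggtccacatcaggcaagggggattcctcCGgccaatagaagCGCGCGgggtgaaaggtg
Ubtd1: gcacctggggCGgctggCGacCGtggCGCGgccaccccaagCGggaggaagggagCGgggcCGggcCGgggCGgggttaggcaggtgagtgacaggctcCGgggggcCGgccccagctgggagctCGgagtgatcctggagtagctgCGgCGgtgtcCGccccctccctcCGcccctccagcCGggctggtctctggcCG
Fbxo28: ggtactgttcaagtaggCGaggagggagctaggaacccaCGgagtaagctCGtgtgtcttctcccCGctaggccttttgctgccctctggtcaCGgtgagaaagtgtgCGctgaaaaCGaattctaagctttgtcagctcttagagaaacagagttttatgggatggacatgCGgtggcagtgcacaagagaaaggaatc
Nr2f2: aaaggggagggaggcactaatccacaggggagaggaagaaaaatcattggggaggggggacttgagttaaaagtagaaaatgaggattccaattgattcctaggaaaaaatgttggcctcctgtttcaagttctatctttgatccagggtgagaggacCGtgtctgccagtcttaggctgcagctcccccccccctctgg

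The Psat1 and Slc7a1 stretches held 12 and 15 CG dinucleotides, those of Creld2 and Ubtd1 held 17 and 19, and those of Fbxo28 and Nr2f2 held 8 and 1. Fbxo28's listed start lies in an intron of Fbxo28, 23219 bp from the nearest same-strand start in GENCODE vM1, so the letters shown there are intronic. The other five stretches lie before starts that are within 34 bp of an annotated one.

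Signal of both subunits was concentrated at gene starts, and more strongly for p400. The mean level was 1.26 for Tip60, 1.64 for p400 and 1.02 in the untagged control. A level of 2 or more, called high, was reached by 2731 rows for Tip60 (12.0%), 7101 rows for p400 (31.3%) and 685 rows in the untagged control (3.02%). Both levels were high in 2205 rows (9.71%). That is 80.7% of the Tip60-high rows and 31.1% of the p400-high rows. Tip60 alone was high in 526 rows, where the median p400 level was 1.72. p400 alone was high in 4896 rows, where the median Tip60 level was 1.40. Among Tip60-high rows 9.81% were also high in the untagged control, and among p400-high rows 6.46% were.

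Across the 22704 rows the levels gave a Pearson r of 0.73 and a Spearman rho of 0.65. The untagged library, which holds neither precipitated protein, gave r of 0.53 with Tip60 and 0.55 with p400. All libraries share mappability and base composition, and 233 rows were at 0 in both ChIPs, so these values are descriptions across rows of single libraries. In 10 equal bins of the p400 ranking, the median Tip60 level went from 0.53 in the lowest to 2.08 in the highest, and the untagged level from 0.50 to 1.31. The top 10% of each ChIP (2271 rows each) shared 1105 rows, which is 48.7% of either list. The top 10% of Tip60 shared 26.9% of its rows with that of the untagged control.

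**Figure D1:**
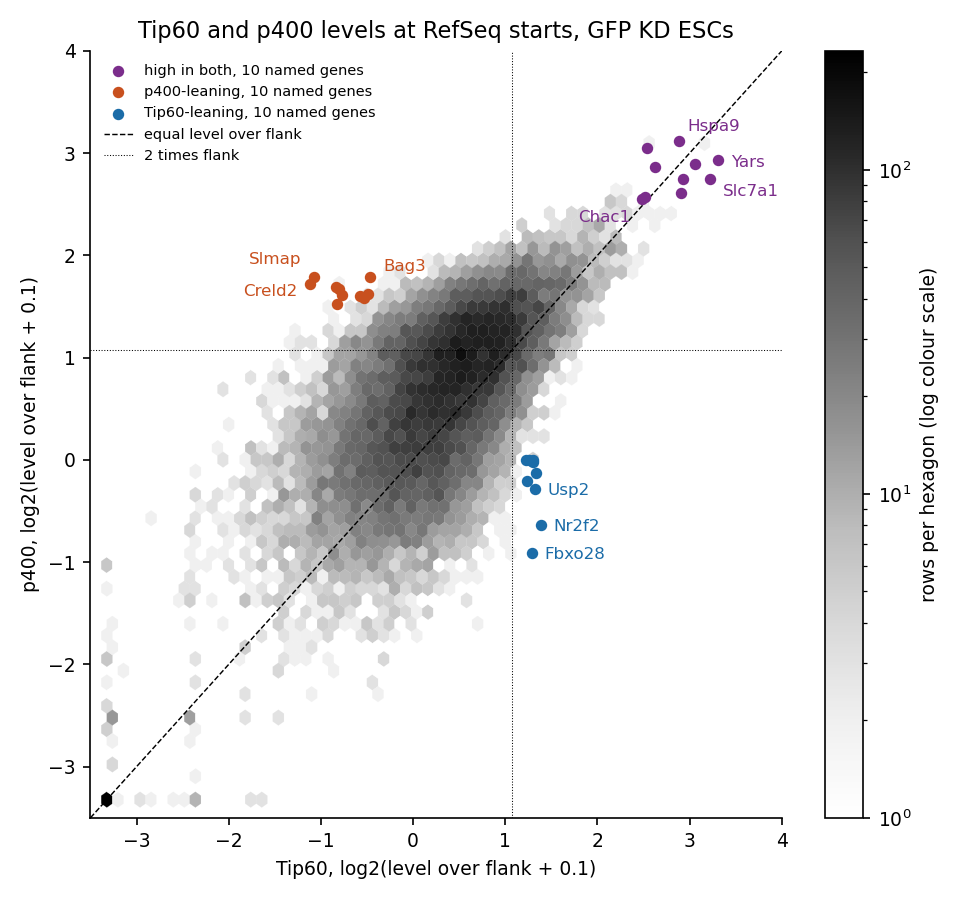
Each hexagon counts rows by their Tip60 level (x axis) and p400 level (y axis), both as log2 of the level over flank plus 0.1, with the 10 named genes of each class as coloured points. The cloud of 22704 rows lies mostly above the dashed line of equal levels, and the high-in-both genes extend it along that line.

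The median log2 ratio of p400 to Tip60, log2((p400 + 0.1)/(Tip60 + 0.1)), was 0.33, with quartiles of -0.06 and 0.74. A single row was called different at a 2-fold ratio with a 95% Clopper-Pearson counting interval of the read ratio that left out 1. p400 was higher by this rule in 2363 rows (10.4%) and Tip60 in 225 rows (0.991%). The split depends on the scale. When the median log2 ratio was set to 0, the calls were 862 for p400 and 636 for Tip60, so that p400 took 57.5% of the calls in place of 91.3%. The values below are therefore read against the median of 0.33. Of the rows called for p400, 1553 reached the 2-fold level in the p400 ChIP. Of the rows called for Tip60, only 42 reached it in the Tip60 ChIP, and their median Tip60 level was 1.56 against 0.52 for p400.

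Ranks do not change when a library is rescaled, so 4 classes were made from them. Background and counting noise still enter the ranks. With the untagged level minus 1 (its difference from the flank) subtracted from Tip60, the 2 leaning classes below held 512 and 298 rows. Rows in the top 10% of both were called high in both (1105 rows, 4.87%), and rows at or below the median of both were called low in both (8333 rows, 36.7%). Rows in the top 10% for p400 and at or below the median for Tip60 were called p400-leaning (177 rows, 0.78%), and the reverse Tip60-leaning (103 rows, 0.454%). The top 10% began at a level of 2.10 for Tip60 and 2.76 for p400, with rows just inside and just outside at the same rounded level, and the medians were 1.15 and 1.54. The Tip60 and p400 levels of the classes follow from how they were made and are given as a description.

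The 10 genes named as high in both had varied functions, several of them in protein synthesis or amino acid supply. Yars, which encodes the tyrosyl-tRNA synthetase, had levels of 9.81 for Tip60, 7.51 for p400 and 1.53 in the untagged control. Its start (chromosome 4, 128867195, in an exon of Yars) lies within 500 bp of the divergent gene S100pbp. Slc7a1, a transporter of cationic amino acids, had 9.21 for Tip60, 6.59 for p400 and 0.72 in the untagged control at its start on chromosome 5 at 149211455. Both levels were far above that of the Flag control, which is no background for the p400 antibody, and Tip60 was above p400. Psat1, an enzyme of serine synthesis, had 8.24 for Tip60, 7.33 for p400 and 1.04 in the untagged control (chromosome 19, 15999515). Rps19, a protein of the small ribosomal subunit, had 7.48, 6.61 and 1.20 in the same order (chromosome 7, 25669733). Hspa9, the mitochondrial Hsp70 chaperone, had the highest p400 level of the 10 named genes at 8.57, with 7.30 for Tip60 and 1.83 in the untagged control.

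The other five named genes of this class were Aen, a nuclease induced by p53, Ppp1r15b, a subunit of the phosphatase of translation factor eIF2 alpha, Chac1, which degrades glutathione, Rg9mtd2, a tRNA methyltransferase, and 5830415F09Rik. Over the 10 genes Tip60 ran from 5.50 to 9.81, p400 from 5.74 to 8.57 and the untagged control from 0.72 to 1.83, a gap that the choice of these rows fixed. Counted reads were 60 to 107 per row for Tip60 and 77 to 115 for p400. None of the 10 was called different between the subunits. The ratio nearest to a call was that of Ppp1r15b, with 62 Tip60 and 110 p400 reads and a p400 to Tip60 fold of 1.44 (counting interval 1.05 to 2.00). In the Hdac6 KD libraries, which had no part in the choice, the 10 genes had Tip60 levels of 2.00 to 6.70 and p400 levels of 1.46 to 2.40.

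The p400-leaning genes named by value had varied functions, and their low Tip60 levels follow from the choice. Slmap, a tail-anchored membrane protein gene, had levels of 0.37 for Tip60, 3.36 for p400 and 1.08 in the untagged control, from 4 and 45 reads in the 2 ChIPs (fold 9.14, counting interval 3.33 to 35.0). Its Tip60 level was below that of the untagged cells. Creld2, an endoplasmic reticulum protein induced by stress, had 0.36 for Tip60, 3.20 for p400 and 0.69 in the untagged control, beside the divergent gene Alg12. Nfya, a subunit of the CCAAT-binding factor NF-Y, had 0.47, 3.09 and 0.77 in the same order. Bag3, a co-chaperone of Hsp70, had the highest Tip60 level of the 10 at 0.63, with 3.35 for p400 and 1.22 in the untagged control.

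The other genes named were Erc1, Ubtd1, Scamp1, Pqbp1, Eny2, a subunit of the SAGA coactivator, and Upf1, the helicase of nonsense-mediated decay. Over the 10 genes Tip60 ran from 0.36 to 0.63 and p400 from 2.78 to 3.36, with untagged levels of 0.66 to 1.29. All 10 listed starts lie in an annotated exon of the gene. The Hdac6 ChIP, which had no part in the choice, was at 1.92 to 3.55. In Hdac6 KD cells Tip60 was at 0.25 to 2.22 and p400 at 0.83 to 2.02 over these 10 genes, so the subunits overlapped there.

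The Tip60-leaning genes named by value had Tip60 levels close to the 2.10 at which its top 10% began. Of the 103 rows of the class, 88.3% lay within 100 bp of an annotated start, against 89.8% of p400-leaning and 86.4% of all rows. Fbxo28, an F-box protein gene, had 2.34 for Tip60, 0.43 for p400 and 1.17 in the untagged control, from 25 and 6 reads (p400 to Tip60 fold 0.20, counting interval 0.07 to 0.49). Nr2f2, an orphan nuclear receptor, had 2.52 for Tip60, 0.54 for p400 and 1.20 in the untagged control at a start 11 bp from an annotated one (chromosome 7, 77511632). Usp2, a deubiquitinase, had 2.40, 0.72 and 0.89 in the same order. That Tip60 was the highest of the 3 libraries at each follows from the choice.

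The others were Ugt3a2, Sh2d7, BC019943, Il17f, a cytokine, Ctage5, Phf21a, which binds histone H3 unmethylated at lysine 4, and Cyb5rl. Over the 10 genes Tip60 ran from 2.24 to 2.52 with 24 to 27 reads, p400 from 0.43 to 0.90 with 6 to 12 reads, and the untagged control from 0.89 to 1.55. Il17f's start lies in an intron 4716 bp from an annotated start, and that of Phf21a in an exon 2180 bp from one. In the Tip60 library of Hdac6 KD cells the same 10 genes were at 0.70 to 1.54, beside a median of 1.01 for all rows. None of the 10 was high there, but only 9.40% of all rows and 11.7% of the class were.

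The average profiles are given as a description, since the classes were made from the signal within 500 bp of the start. In the high-in-both class the smoothed Tip60 profile reached 3.63 at 120 bp after the start and p400 reached 4.49 at 60 bp after it, while the untagged control had 1.56 at 420 bp before, 1.41 at the start and 1.54 at 320 bp after it. Upstream, the smoothed Tip60 profile was highest at 100 bp before the start (3.10), the edge of the stretch searched, so no separate upstream peak was found. The mean Tip60 signal from -100 to 300 bp was 1.26 times that from -600 to -200 bp, against 1.35 times for p400 and 1.51 times for Hdac6. In the p400-leaning class Tip60 went from 1.56 at 800 bp before the start to 0.77 at 120 bp before it, while the untagged control's lowest value was 1.09 and p400 reached 3.44 at 20 bp after the start. The low Tip60 and high p400 there are what the class was chosen for. In the Tip60-leaning class Tip60 reached 2.57 at 80 bp after the start, and p400 had 1.30 at 180 bp before the start, 1.17 at 340 bp after it and 1.34 at 640 bp after it.

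**Figure D2:**
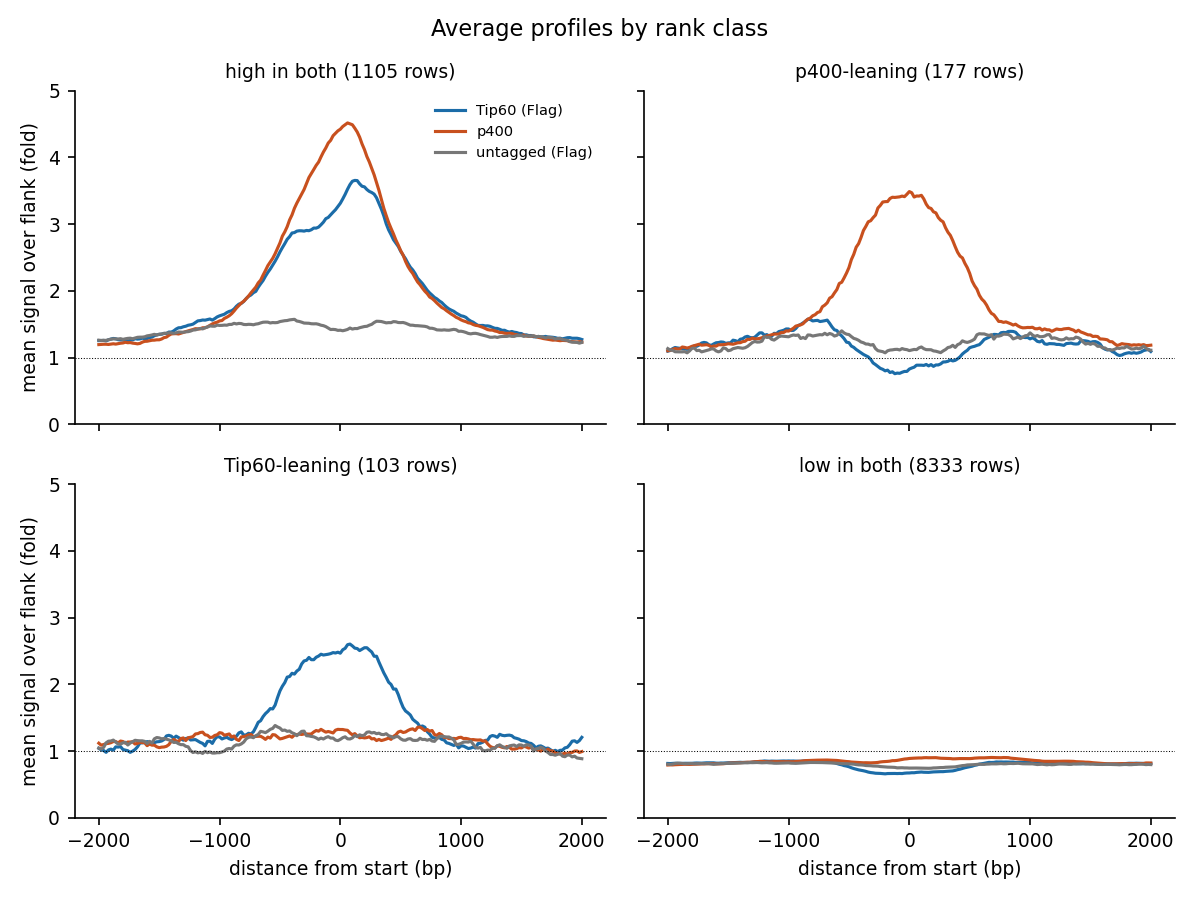
Mean signal over flank (y axis) against the distance from the start (x axis, bp) in the 4 rank classes for Tip60, p400 and the untagged Flag control. In the p400-leaning class, chosen for low Tip60, the Tip60 line lies below the untagged line at the start, and in the low-in-both class all 3 lines stay under 1.

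Base composition differed among the classes although the rule did not use it. The median GC content of the 1001 bases around the start was 59.7% for high in both, 62.6% for p400-leaning, 50.9% for Tip60-leaning and 55.2% for all rows. The ratio of observed to expected CpG was 0.81, 0.77, 0.36 and 0.55 in that order. A CpG ratio of 0.6 or more was found in 91.3% of the high-in-both, 86.4% of the p400-leaning and 19.4% of the Tip60-leaning rows, against 45.7% of all rows. Over all rows the median log2 ratio went from -0.15 at a GC content under 40% to 0.66 above 70%. The median p400 level was highest at 60 to 65% GC, at 2.11, where Tip60 was at 1.39. Above 70% GC p400 was at 1.65 and Tip60 at 1.00, and the untagged control at 0.69. The part of base composition in the difference between the subunits was not tested.

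**Figure D3:**
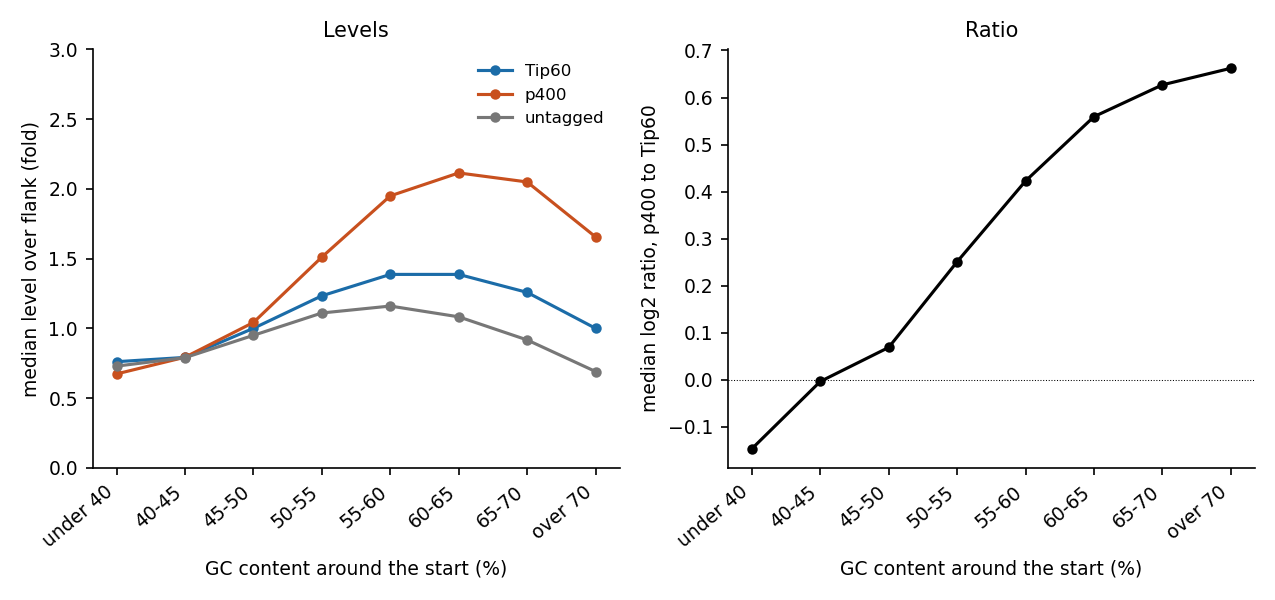
Left, the median level over flank of Tip60, p400 and the untagged control in 8 bins of GC content of the 1001 bases around the start. Right, the median log2 ratio of p400 to Tip60 in the same bins, which increases from -0.15 to 0.66.

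Short motifs were searched on both strands from 250 bp before to 49 bp after the start. No motif in the list contains another, and the part of GC content in the shares was not tested. The core of the ETS site, CGGAAG, stood in 45.9% of high-in-both, 32.2% of p400-leaning and 15.5% of Tip60-leaning promoters, against 20.4% of all. The E-box CACGTG, bound by Myc and its partners, stood in 17.6%, 8.47% and 10.7% against 7.66%. The NRF1-type sequence GCGCATG was in 11.0%, 9.60% and 5.83% against 4.46%. The sequence TCTCGCG was in 10.6%, 5.08% and 1.94% against 3.41%, and AAGATGG, part of the YY1 site, in 12.2%, 9.04% and 4.85% against 6.88%. The GC box GGGCGG was most frequent in the p400-leaning class (78.0%, against 65.3% of high-in-both, 38.8% of Tip60-leaning and 45.8% of all promoters). TATAAA stood in 6.24%, 2.26% and 5.83% against 12.5%, and CCAAT in 35.7%, 36.2% and 41.7% against 36.4%. Matches are letters in these windows and not sites.

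The Hdac6 KD libraries and the Hdac6 ChIP, which had no part in the classes, set them apart by unlike amounts. In each of them the median was highest for high in both, then p400-leaning, then Tip60-leaning. For the high-in-both class the median Tip60 level in Hdac6 KD cells was 1.97, against 1.01 for all rows, and 47.9% of its rows were high there against 9.40%. The p400 library of Hdac6 KD cells had few high rows at all (2.91%), and its median in this class was 1.51 against 1.17. The p400-leaning class had a median of 1.19 for Tip60 and 1.36 for p400 in Hdac6 KD cells. The Tip60-leaning class had 1.11 for Tip60 and 1.18 for p400, and 11.7% of its rows were high for Tip60 there. In the Hdac6 ChIP 76.3% of p400-leaning and 30.1% of Tip60-leaning rows were high, with 75.2% of high-in-both and 38.4% of all rows. The median Hdac6 levels of the leaning classes were 2.56 and 1.53. Hdac6 also differed with GC content, with a median of 2.37 over all rows at 60 to 65% GC and 1.57 at 50 to 55%. The part of GC content in the split of these classes was not tested. The Hdac6 values imply about 11600000 normalizing reads.

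**Figure D4:**
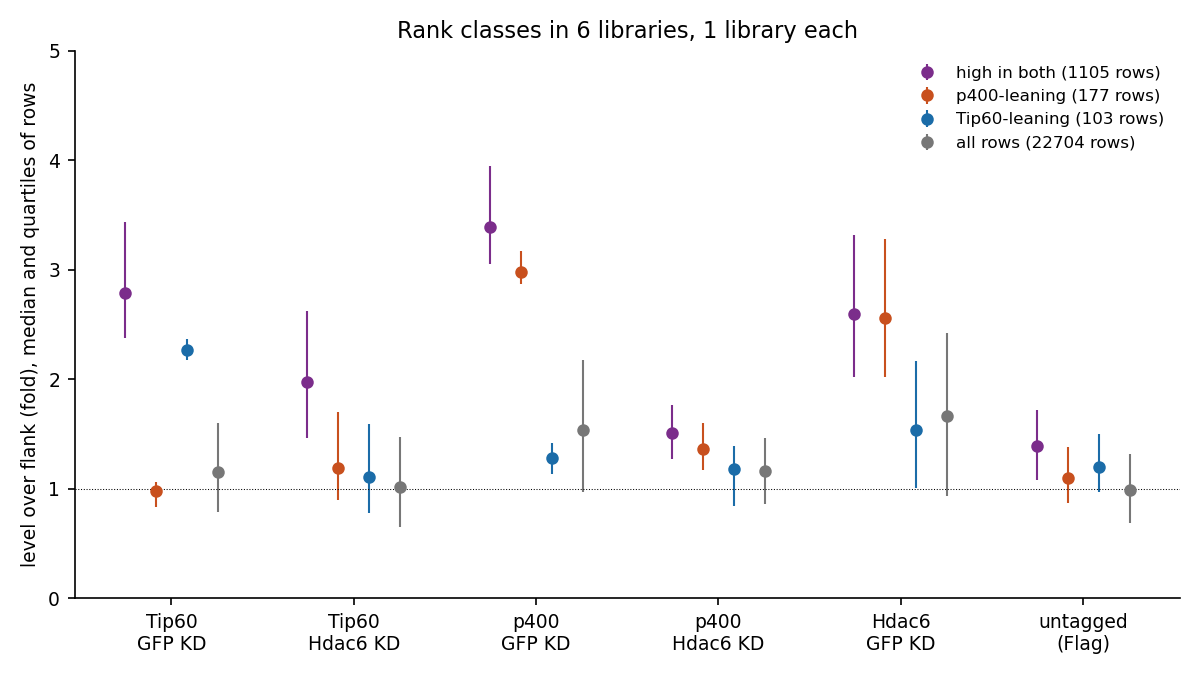
Median level over flank (points) with quartiles of the rows (lines) for 3 rank classes and all rows in 6 libraries, 1 library each. The classes were made from the GFP KD libraries of Tip60 and p400, and in the Hdac6 KD libraries the medians of the p400-leaning and Tip60-leaning classes are 1.19 and 1.11 for Tip60 and 1.36 and 1.18 for p400.

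The log2 ratio of p400 to Tip60 in the Hdac6 KD pair gave r of 0.11 with that of the GFP KD pair, a weak relation between sparse counts from different conditions. Of the 2363 rows called for p400 in GFP KD cells, 1382 lay above the all-row median of the Hdac6 KD ratio and 981 below it. Of the 225 rows called for Tip60, 76 lay above and 149 below.

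Among gene families, matched by symbol, those of ribosomes and tRNA charging had the highest levels of both subunits. Cytosolic ribosomal protein genes (99 rows, 80 genes) had medians of 2.93 for Tip60, 3.23 for p400 and 1.39 in the untagged control. Both levels were high in 76 of the 99 rows, against 9.71% of all rows, and 64 were in the high-in-both class. The median log2 ratio was 0.21. Rpl23a had the lowest ratio among the high members, with 5.77 for Tip60 and 2.74 for p400 (63 and 37 reads), and Rpl29 the highest, with 1.44 and 3.51 (16 and 47 reads). Some ribosomal genes have many pseudogene copies, and reads in their starts are uncertain for that reason.

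Aminoacyl-tRNA synthetase genes (36 rows, 34 genes) encode the enzymes that load tRNAs with amino acids. They had medians of 2.23 for Tip60, 3.17 for p400 and 1.42 in the untagged control. Of the 36 rows 22 (61.1%) were high in both, against 9.71% of all rows. Iars had 8.70 for Tip60, 6.17 for p400 and 2.03 in the untagged control. Tars had 8.00 for Tip60, 4.04 for p400 and 2.02 in the untagged control. Its ratio (-0.97) was the lowest among the rows of the family high in either ChIP. Mars had 5.27 and 4.35, and Lars 6.24 and 4.95, for Tip60 and p400. Fars2, for the mitochondrial phenylalanine enzyme, was at the other end with 0.98 for Tip60 and 2.54 for p400.

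The other housekeeping families given here were high in both in smaller shares of rows, though above the 9.71% of all rows. Their log2 ratios were near that of all rows. Translation factor genes had medians of 1.90 for Tip60 and 2.56 for p400 and were high in both in 26 of 63 rows (41.3%). Splicing factor genes had 1.76 and 2.50 (35 of 91 rows, 38.5%), and mitochondrial ribosomal protein genes 1.82 and 2.46 (29 of 76, 38.2%). Respiratory chain and ATP synthase genes had 1.78 and 2.29 (26 of 97, 26.8%), and chaperone genes 1.69 and 2.23 (25 of 88, 28.4%). From translation factor to chaperone genes, the median log2 ratios were between 0.26 and 0.43. Among proteasome genes 23 of 36 rows (63.9%) were high for p400 and 6 (16.7%) for Tip60, against 31.3% and 12.0% of all rows, and 9 rows (25%) were called for p400 against 10.4% of all rows. Their median log2 ratio was 0.47, above that of all rows, but with a window of 1000 bp on either side the difference from all rows was -0.057. Psmd8, a regulatory particle subunit, had 0.60 for Tip60 and 2.77 for p400, whereas Psmc3, an ATPase of the same particle, had 2.91 and 2.02.

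Among developmental regulator families, homeobox, forkhead, Hox and Wnt genes had p400 to Tip60 ratios above the all-row median. Nodal pathway genes (19 rows) did not, with a median log2 ratio of 0.26 and 8 rows above the all-row median. A ratio above that of all rows was not particular to developmental families. Rab and Ras-like GTPase genes had a median log2 ratio of 0.57, with 94 of 135 rows above the all-row median. Ubiquitin conjugating and ligase genes had 0.54, with 100 of 149 rows above it. Of these 2 families 15.6% and 10.1% of rows were called for p400, against 10.4% of all rows. Levels of both subunits were below those of all rows for homeobox, forkhead and Hox genes. The medians of all rows were 1.15 for Tip60 and 1.54 for p400. Dispersed homeobox and paired genes (98 rows, 87 genes) had medians of 0.84 for Tip60, 1.45 for p400 and 0.89 in the untagged control. High levels were seen in 20 rows (20.4%) for p400 and in 0 for Tip60, against 31.3% and 12.0% of all rows. The median log2 ratio was 0.78, 76 of the 98 rows lay above the all-row median, and 23 (23.5%) were called for p400 against 10.4% of all rows. Gbx2, a homeobox factor of the early embryo, had 1.26 for Tip60, 3.34 for p400 and 0.50 in the untagged control. Otx2, of the anterior brain, had 1.02, 2.48 and 0.94, and Msx1 had 0.38, 2.04 and 0.84. At Gbx2 and Otx2 Tip60 was near the flank, and at Msx1 it was below the untagged control.

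Forkhead, Sox, T-box and Gata genes had medians of 0.96 for Tip60 and 1.46 for p400 and a log2 ratio of 0.55, with 20 of 101 rows (19.8%) called for p400 against 10.4% of all rows. High levels were seen in 18 rows (17.8%) for p400 and 2 (1.98%) for Tip60. Their median GC content was 61.1%, and all rows at 60 to 65% GC had a median log2 ratio of 0.56. With the ratio corrected for GC content their median was 0.46, beside 0.33 for all rows. The corrected medians of homeobox, Hox and Wnt pathway genes were 0.60, 0.53 and 0.53. Those of Rab and Ras-like GTPase, ubiquitin and clustered protocadherin genes were 0.44, 0.41 and 0.82. Foxh1, a partner of Smad proteins, was high in both with 3.40 and 3.08. Hox cluster genes had 0.95 and 1.37 (log2 ratio 0.56), with 1 of 43 rows (2.33%) high for Tip60 and 3 (6.98%) for p400, against 12.0% and 31.3% of all rows. The untagged medians of these families were 0.83 and 0.86. Among the Hox rows high in either ChIP, Hoxc4 had the lowest ratio, with 2.04 for Tip60, 1.04 for p400 and 1.65 in the untagged control.

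Wnt pathway genes (50 rows, 39 genes) had medians of 0.98 for Tip60, 1.62 for p400 and 0.99 in the untagged control, and 15 rows (30.0%) were called for p400 against 10.4% of all rows. High levels of p400 were seen in 13 rows (26%) and of Tip60 in 4 (8%), against 31.3% and 12.0% of all rows. Several of these were Frizzled receptors. Fzd4 had 0.77 for Tip60 and 2.15 for p400, Fzd8 had 0.86 and 2.23, and Fzd7 had 0.75 and 2.68, but Fzd7 was at 1.99 in the untagged control. Axin2, a negative regulator of the pathway, had 1.04 for Tip60, 2.62 for p400 and 0.81 in the untagged control. Sfrp2, a secreted Wnt inhibitor, was high in both with 2.34 and 2.71, and Wnt5b had 2.86 for Tip60 against 1.43 for p400.

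**Figure D5:**
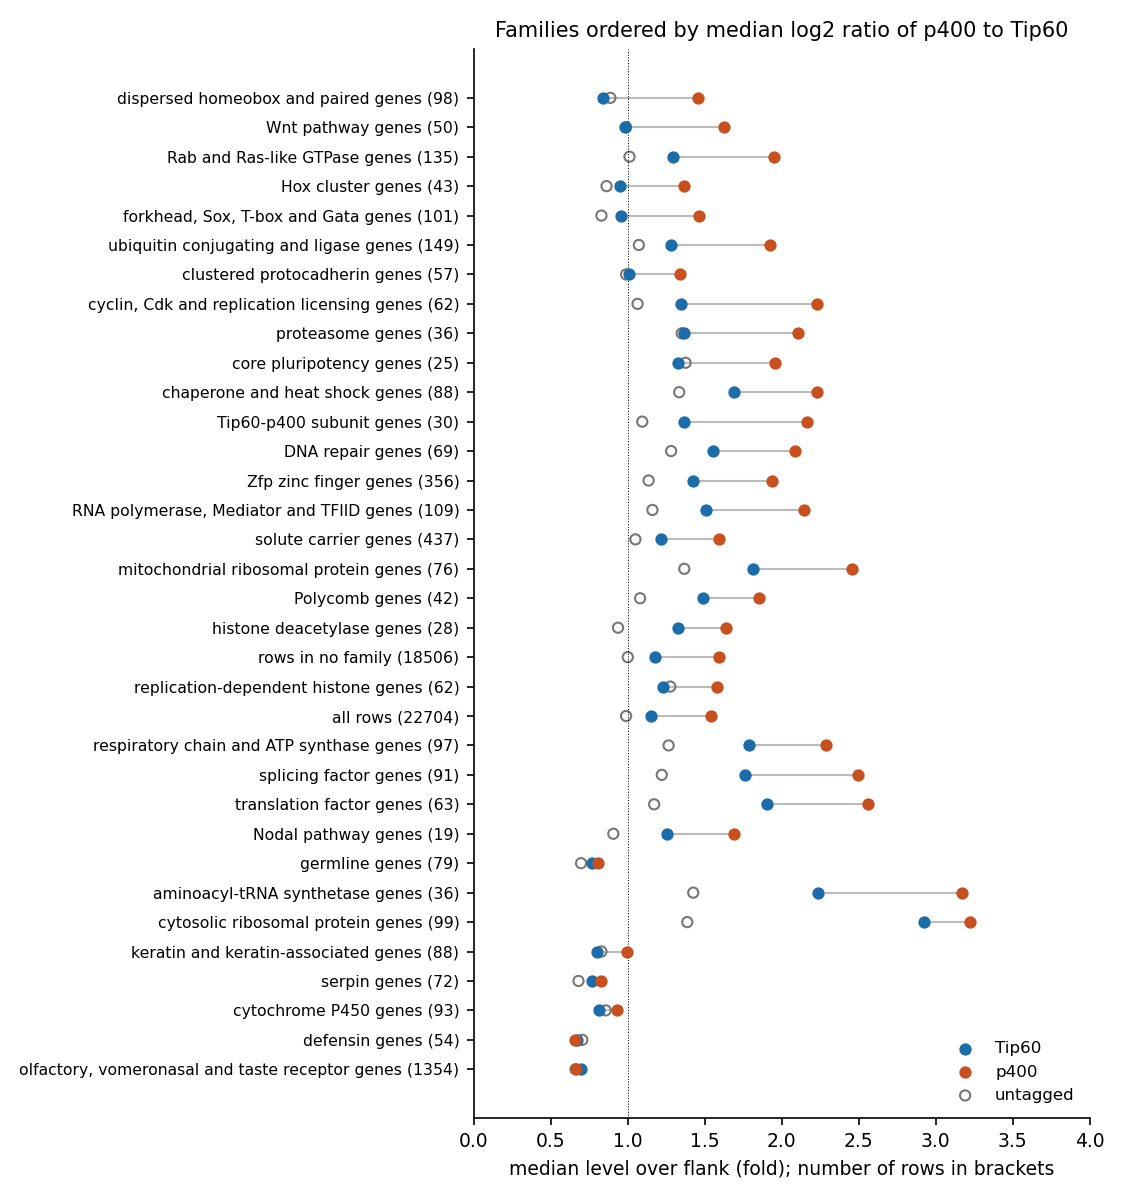
Median level over flank of Tip60, p400 and the untagged control for the families of 15 or more rows, for all rows and for rows in no family, ordered by the median log2 ratio of p400 to Tip60. Homeobox and Wnt pathway genes stand at the top with Tip60 at the untagged level, ribosomal protein and tRNA synthetase genes have the highest levels, and receptor and defensin genes at the bottom show no gap.

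Families of receptors and of genes of specialised tissues were low for both. Olfactory, vomeronasal and taste receptor genes (1354 rows) had medians of 0.70 for Tip60, 0.67 for p400 and 0.66 in the untagged control, with a log2 ratio of -0.06. Their median GC content was 39.0%, and with the ratio corrected for GC content their median was 0.35, beside 0.33 for all rows. Defensin, serpin, keratin and cytochrome P450 genes had Tip60 medians of 0.67 to 0.81 and p400 medians of 0.66 to 0.99. Replication-dependent histone genes had 1.23 for Tip60 and 1.58 for p400, close to all rows, but the untagged control was at 1.28 there. Hist4h4 had the highest p400 level among them, 4.56, with 3.45 for Tip60 and 2.73 in the untagged control.

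The genes of the complex itself were mixed. Of 30 rows from 18 genes, 7 (23.3%) were high for Tip60 and in both, against 12.0% and 9.71% of all rows, and 17 (56.7%) for p400 against 31.3%. Morf4l1, a chromodomain subunit, had 3.62 for Tip60, 3.75 for p400 and 0.91 in the untagged control. Brd8, a bromodomain subunit, had 4.05 and 4.11, but 2.00 in the untagged control. Ep400 itself had 1.15 for Tip60 and 3.45 for p400 at one start and 0.77 and 1.18 at the other. Trrap, the large scaffold protein, had 1.32 and 3.27, and Ing3, which reads methylated histone H3, had 1.31 and 3.02. Kat5, which encodes Tip60, had 1.10 to 1.30 for Tip60 and 1.74 to 2.00 for p400 over 3 rows. Its tagged copy was the source of the Tip60 ChIP.

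Among core pluripotency genes (25 rows), 12 (48%) were high for p400 and 5 (20%) for Tip60, against 31.3% and 12.0% of all rows. Pou5f1 had 2.26 for Tip60 and 2.62 for p400, but 2.22 in the untagged control, and Nanog had 1.78 and 2.06 with 2.31 in the control. Neither subunit stood clearly above the untagged Flag control at these genes, though that library is no background for the p400 antibody. Sall4 had 1.35 for Tip60, 3.0 for p400 and 0.88 in the control. Tcl1 had 2.48, 2.15 and 0.96, and Utf1 2.09, 2.49 and 1.40. Tdgf1, the Nodal co-receptor, had 2.14 for Tip60 and 1.05 for p400 from 23 and 14 reads, and its interval reached 1.

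Genes that the study examined by ChIP-qPCR or as example loci were looked at by name. Rps9 had 2.91 for Tip60, 3.17 for p400 and 1.88 in the untagged control (chromosome 7, 3655643). Rpl27a had 2.59, 3.40 and 1.23 (chromosome 7, 116662709). Cdkn1a, the cell cycle inhibitor p21, had 3.30 for Tip60, 2.37 for p400 and 1.44 in the control at the start on chromosome 17 at 29230720, and 1.02, 1.37 and 1.16 at the start at 29235152. The subunits were not called different at these genes.

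Gata4, an endoderm regulator, had 0.92 for Tip60, 2.21 for p400 and 0.94 in the untagged control at chromosome 14, 63864097 (10 and 30 reads, fold 2.44, counting interval 1.16 to 5.59), and was called for p400. At its second start, 63890529, it had 0.50, 0.95 and 0.73 and was not called. Zfp37, a zinc finger gene, had 1.35 and 3.20 at one start and 1.39 and 3.36 at the other, 100 bp away, and both were called for p400, although the untagged control was at 2.13 and 2.03. Nodal had 2.12 for Tip60, 2.31 for p400 and 2.18 in the untagged control, so all 3 libraries were alike there. Nefl had 1.03 for Tip60 and 1.71 for p400, Dkk1 0.66 and 1.15, and Speer2 0.80 and 0.87, with untagged levels of 1.08, 0.73 and 0.43.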

How the data were processed

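ChIP-seq signal of 1 library per condition was taken from tables the authors deposited. The authors mapped reads to mm9 with Bowtie (read calling CASAVA 1.8.2, per the submitters' processing notes) and deposited signal, the coverage by extended reads, scaled to sequencing depth, at 20 bp steps from -2000 to 2000 bp around starts. Values were whole multiples of 1 read (tolerance 0.02). The stated extension was 150 bp, but reads spanned 299 bp in the Tip60, p400 and untagged tables and 148 bp in that of Hdac6. Reads per row were the summed signal divided by that of 1 read.

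Levels, log2 ratios (pseudocount 0.1), Clopper-Pearson counting intervals (95%) and ranks were computed with Python 3.11.15, numpy 2.4.6, pandas 2.3.3, scipy 1.17.1 and matplotlib 3.10.9. The calls were also run on simulated read counts, in which both libraries had the same level apart from rows changed on purpose. That setting holds no library-wide offset, GC trend or difference of antibody and cell line, so it cannot speak to these. Sequence came from NCBIM37 (mm9) and starts and exons from GENCODE vM1. The listed position plus 1 matched an annotated start in 48.1% of rows on either strand, and 86.4% of rows lay within 100 bp of one.

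Members and lists were chosen with earlier results of these data known. Named genes were 10 genes of the study, of which Gata6 is not analysed here, and by value, from rows with an untagged level under 2 and 20 or more reads, the 10 with the highest lesser percentile and the 10 of each leaning class with the largest percentile difference. In each of 33 families, described by symbol patterns some of which were corrected after the matched symbols were seen, the members of highest and lowest ratio among those high in either ChIP were named. Members of families, pathways and complexes named beyond these were chosen after their values were seen. The library of Hdac6 ChIP in Tip60 KD cells was not used.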

Additional observations from a re-analysis of the deposited data

How the results depend on the processing

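No paired analysis was possible because each condition has 1 library and the result comes from no test. A row held about 13 Tip60 reads, so single-row ratios are coarse, and no control library of the p400 antibody was used here. Except for what each setting fixes by construction, the cause of the changes below was not tested.

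With a window of 250 bp on either side of the start the p400 mean level was 1.75, r was 0.66, 134 rows were called for Tip60, and 283 rows were p400-leaning and 205 Tip60-leaning. With 1000 bp on either side the p400 mean was 1.44 and r 0.78, with 1719 rows high for Tip60, 4240 for p400 and 1259 for both, and 1038 and 139 rows called for p400 and Tip60. Against each row's own flank plus a pseudocount of 0.5, the means were 0.86 for Tip60 and 1.10 for p400 and r was 0.52. There 615, 1731 and 317 rows were high for Tip60, p400 and both, 408 were called for Tip60, and 341 and 311 were p400-leaning and Tip60-leaning. Without the 1% of rows highest in the untagged control r was 0.69. With 1 row per gene the p400 mean was 1.72. In another setting the untagged level minus 1 was subtracted from Tip60, which raised Tip60 where the untagged level was under 1. There r was 0.42, 4352 and 492 rows were called for p400 and Tip60, and 512 and 298 were p400-leaning and Tip60-leaning. Without rows with another start within 500 bp, a setting added after seeing the data, the p400 mean was 1.54 and 1452 rows were high in both.

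A cutoff of 1.5 gave 6710, 11747 and 5688 rows high for Tip60, p400 and both, and a cutoff of 3 gave 517, 1504 and 392, with 556 rows called for p400 and 63 for Tip60. A pseudocount of 0.5 gave 1276 calls for p400 and 94 for Tip60, centring on the median ratio 862 and 636, and the GC correction 95 for Tip60. The top 5% gave 532, 46 and 18 rows high in both, p400-leaning and Tip60-leaning, and the top 20% gave 2486, 607 and 506.

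Families whose median log2 ratio lay within 0.1 of that of all rows were not counted here, and some changed sign. Chaperone genes, for example, went from 0.43 to 0.27 after GC correction, beside 0.33 for all rows. In families further away, the sign of the difference from all rows changed in 9 instances. They included proteasome genes (-0.057) and clustered protocadherin genes (-0.036) in the wider window, the latter also against their own flank (-0.17). Core pluripotency genes changed with 1 row per gene (-0.0072). Ribosomal protein (0.040) and tRNA synthetase genes (0.045) changed with the untagged level minus 1 subtracted from Tip60. Olfactory and related receptor (0.014), cytochrome P450 (0.025) and serpin genes (0.050) changed after GC correction. Homeobox, Wnt, Hox and forkhead families kept a median ratio above that of all rows under each setting run.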

Other observations

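Several of the genes with the highest levels of both subunits (Psat1, Slc7a1, Chac1, Ppp1r15b) belong to the amino acid response, the program that the factor ATF4 turns on when amino acids are short. A list of 29 such genes was therefore written after these values had been seen, so its values are a description with no test. The list includes the genes that prompted it, which adds to its levels. Its 36 rows had medians of 2.94 for Tip60, 3.48 for p400 and 1.35 in the untagged control. Of the 36, 23 (63.9%) were high in both, against 9.71% of all rows. The median percentile among all rows was 97.5 for Tip60 and 97.1 for p400, and the median log2 ratio was 0.06 against 0.33 for all rows. Asns, which makes asparagine, had 4.34 for Tip60, 4.10 for p400 and 1.86 in the untagged control, Shmt2 4.21, 3.14 and 1.69, and Nupr1 4.91, 3.52 and 1.79. Atf4 itself had 1.85 for Tip60 and 5.22 for p400 with 2.21 in the control, and Cebpb was low in both at 0.65 and 0.91. The letters TGATGCA, part of the ATF4 response element, stood near 6 of the 36 listed starts (16.7%), from 5 of the 29 genes, since some genes have starts close together that share DNA. The share was 2.57% of all rows, 2.81% of the high-in-both, 2.26% of the p400-leaning and 6.80% of the Tip60-leaning class.

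A second list chosen in the same way held p53 target genes, of which 23 had a row. Their 28 rows had medians of 1.93 for Tip60, 2.49 for p400 and 1.12 in the untagged control. Of these rows 11 (39.3%) were high in both, against 9.71% of all rows. Bax, which drives apoptosis, had 5.73 for Tip60, 8.60 for p400 and 2.02 in the control, and Ccng1 had 3.48, 2.28 and 1.66. Mdm2, which degrades p53, had 1.78 for Tip60 and 3.99 for p400, and Plk2 0.93 and 3.31, with 1.32 and 1.40 in the control.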
